A study of Mus musculus with 7 samples.

Results

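The 7 genes of the insulin and insulin-like growth factor (IGF) entry point, the ligands Igf1 and Igf2, the receptors Igf1r, Insr and Igf2r, and the receptor substrates Irs1 and Irs2, were taken by symbol, regardless of case, from a table of 24353 genes, and 7 of 7 were found. They were read in 7 libraries of endometrial epithelial cells from female C57BL/6 mice whose ovaries had been removed at 6 to 7 weeks of age, so that every group lacks ovaries. The groups were 2 libraries of mice given tamoxifen at 0.5 mg per day with alpelisib at 30 mg/kg per day, 2 of mice given tamoxifen alone at 0.5 mg per day, 2 of mice given estradiol from a 60-day release pellet of 0.01 mg, and 1 of vehicle, each treated for 28 days. Tamoxifen was injected under the skin in peanut oil and alpelisib was given by mouth. Tamoxifen binds the estrogen receptor and acts as a partial agonist in uterine tissue. Alpelisib blocks the catalytic subunit p110-alpha of phosphoinositide 3-kinase (PI3K), encoded by Pik3ca. Vehicle has a single library and therefore no SD, and the sources used here do not say whether it came from 1 mouse or from pooled mice. Nothing beyond the mouse numbers in the titles says how the libraries of a group were separated, so p-values measure the spread between these libraries only. Vehicle adds nothing to that spread, so p-values against it assume that it varies like the treated groups.

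IGF1 and IGF2 are secreted peptides that bind the IGF1 receptor, a tyrosine kinase closely related to the insulin receptor, and the activated receptors phosphorylate the adaptor proteins IRS1 and IRS2, which recruit PI3K and so lead to AKT. The IGF2 receptor has no kinase: it carries IGF2 and mannose 6-phosphate tagged enzymes to lysosomes. In the mouse uterus Igf1 is known as an estrogen-induced factor made largely by the stroma that acts on the epithelium, and transcription of Irs2 and Insr is known to be raised by FOXO factors when AKT is inhibited.

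The values are FPKM, fragment numbers scaled to transcript length and to library size, a level per length that allows different genes to be set side by side. Fold changes are differences of log2(FPKM + 1) from a limma-trend fit, given ± SE, and a gene was called when its adjusted p, by the Benjamini-Hochberg method over all 12314 genes tested, was under 0.05. Adding 1 before the logarithm understates the fold changes of genes with low levels, as most of these are. Igf2 and Irs2 reached an FPKM of 1 in the vehicle library alone and entered the test only through it, while the other 5 members reached it in at least 1 treated library. Their low values in the treated groups against vehicle are therefore partly fixed by that filter, and the fit with no filter on low values is given beside them.

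The proximal promoters of Igf1r, Irs1 and Irs2 are shown because the main differences described below concern the signaling receptor and both substrates, Igf1r and Irs2 being lowest with tamoxifen and Irs1 highest with estradiol. Each run is the 250 bases before the annotated transcription start in RefSeq's GRCm38.p6, 5′ to 3′ on the gene's strand, at chr7:67952007-67952256 (plus strand) for Igf1r, chr1:82291440-82291689 (minus strand) for Irs1 and chr8:11008930-11009179 (minus strand) for Irs2, and capitals mark each GC box (GGGCGG, either strand).
Igf1r: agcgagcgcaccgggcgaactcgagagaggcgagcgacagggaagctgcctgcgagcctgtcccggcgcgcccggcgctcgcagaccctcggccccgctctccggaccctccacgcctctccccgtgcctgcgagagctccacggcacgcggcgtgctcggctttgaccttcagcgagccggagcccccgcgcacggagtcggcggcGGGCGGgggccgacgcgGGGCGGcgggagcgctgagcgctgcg
Irs1: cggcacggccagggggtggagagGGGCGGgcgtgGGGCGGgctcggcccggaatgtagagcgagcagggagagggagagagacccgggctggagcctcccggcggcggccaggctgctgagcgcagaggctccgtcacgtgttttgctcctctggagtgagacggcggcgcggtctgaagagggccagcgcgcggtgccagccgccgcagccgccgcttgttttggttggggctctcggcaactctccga
Irs2: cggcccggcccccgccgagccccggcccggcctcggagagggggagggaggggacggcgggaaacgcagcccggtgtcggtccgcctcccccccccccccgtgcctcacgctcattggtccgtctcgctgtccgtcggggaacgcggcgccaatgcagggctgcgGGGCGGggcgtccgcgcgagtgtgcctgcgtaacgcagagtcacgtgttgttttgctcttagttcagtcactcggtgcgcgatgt
These windows were rich in G and C, at 77.6% for Igf1r, 72.4% for Irs1 and 72.8% for Irs2, against a median of 52.4% over 32851 windows of the same length in the same RefSeq set. The Igf1r and Irs1 windows held 2 GC boxes each and the Irs2 window 1, and a GC box was present in 32.7% of all windows. The FOXO motif in the form GTAAACA, present in 3.17% of all windows, and the palindromic estrogen response element (AGGTCA and TGACCT with 3 bases between them), present in 0.0213%, were in none of the 3 windows on either strand. Only these exact letters were searched, so other forms of either site were not looked for. Of the members, 6 had a promoter entry. The Igf2r window held 3 GC boxes, that of Igf1 held none of the 3 motifs, and the 4 windows listed for Igf2 held 0, 0, 1 and 2 GC boxes and no other motif. A match, or its absence in so short a window, is a description of the letters only.

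Before the members are described, the libraries themselves differed. All 9 epithelial markers stood at an FPKM of at least 1 in all 7 libraries, with Epcam between 202 and 289. From the smallest steps between values of genes with a single transcript, depth was near 15.6 to 18.6 M fragments in 6 libraries and could not be read in estradiol 2, where that step was not clear. Ribosomal RNA precursor was also higher in the estradiol libraries (764 to 2276 FPKM) than in the others (189 to 530.4 FPKM). Stromal fibroblast markers summed to 129.8 and 137.8 FPKM with tamoxifen plus alpelisib, 72.9 and 69.4 with tamoxifen, 190.2 and 180.5 with estradiol, and 267.7 in vehicle. In the same order, smooth muscle markers summed to 17.0 and 18.1, 22.3 and 19.8, 9.14 and 6.14, and 72.7 FPKM, and endothelial markers to 1.04 and 1.003, 1.25 and 1.02, 7.12 and 6.27, and 9.82 FPKM. The vehicle library was thus highest for all 3 of these lists, and for the epithelial list as well (8656 FPKM, against 3111 to 7158 in the treated libraries). Single stromal and vascular markers were at 0 in places: Dpt in estradiol 2, Actg2 in estradiol 2 and in both libraries of tamoxifen plus alpelisib, and Tek and Emcn in tamoxifen plus alpelisib 2. Macrophage and leukocyte markers summed to 123.1 and 122.9 FPKM with tamoxifen plus alpelisib, 49.9 and 62.3 with tamoxifen, 110.0 and 77.5 with estradiol, and 45.8 in vehicle, and red cell markers to 133.9 and 148.5, 725.7 and 522, 35.4 and 67.7, and 16.6 FPKM in that order. Cd14 alone gave 102 and 104 FPKM of the leukocyte sums with tamoxifen plus alpelisib. Csf1r stood at 0.485 and 0.443 FPKM there, against 4.27 and 4.19 with estradiol, and Adgre1 at 0.449 and 0.241 against 3.32 and 2.36. Of 5 tested leukocyte markers, 1 was higher and 3 were lower with tamoxifen plus alpelisib than with estradiol. In such bulk samples, fewer cells of a type and less RNA per cell cannot be told apart.

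**Figure D1:**
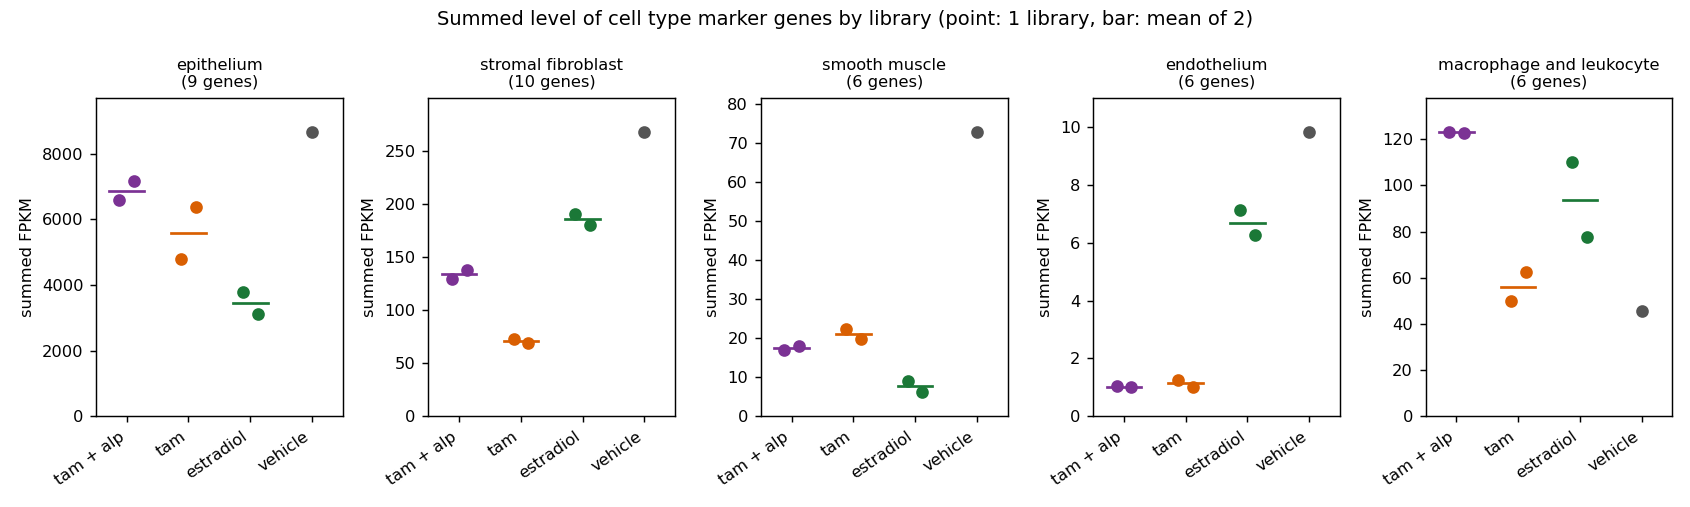
Summed FPKM of lists of cell type markers, 1 point per library and a bar at the mean of 2 libraries, with the number of genes of each list in its heading and a separate axis from 0 in each panel. The vehicle library is highest in the epithelial, stromal, smooth muscle and endothelial panels, and the endothelial sums of both tamoxifen groups lie between 1.003 and 1.25 FPKM.

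The 2 ligands were expressed at low levels in this epithelium. Igf1 had an FPKM of 0.931 and 1.07 with tamoxifen plus alpelisib, 1.28 and 0.998 with tamoxifen, 0.995 and 1.21 with estradiol, and 1.08 in vehicle. The groups overlapped, the vehicle library lay within the range of the estradiol and of the tamoxifen libraries, and Igf1 was called in 0 of the 6 comparisons. Its 95% intervals are on log2(FPKM + 1), which understates fold changes at levels near 1 FPKM, so larger changes in FPKM are not excluded. Those against vehicle also take their spread from the treated groups, as vehicle has 1 library. For estradiol against vehicle the log2 fold change was 0.01 ± 0.17 (adjusted p = 0.97), with an interval from -0.40 to 0.42. For tamoxifen against vehicle it was 0.03 ± 0.17 (adjusted p = 0.892), with an interval from -0.38 to 0.45. For tamoxifen plus alpelisib against tamoxifen it was -0.10 ± 0.14 (adjusted p = 0.702), with an interval from -0.43 to 0.24.

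Igf2, the paternally expressed growth factor, was near 0 in every library but that of vehicle. It had an FPKM of 0.0152 and 0 with tamoxifen plus alpelisib, 0 and 0.0857 with tamoxifen, 0.139 and 0.120 with estradiol, and 1.60 in vehicle. Every treated library lay below vehicle, and 1 library of each tamoxifen group was listed at 0. The log2 fold change against vehicle was -1.37 ± 0.15 with tamoxifen plus alpelisib (adjusted p = 0.00134), -1.32 ± 0.15 with tamoxifen (adjusted p = 0.00129) and -1.20 ± 0.15 with estradiol (adjusted p = 0.00264). These sizes rest on the pseudocount, since at 0.1 they became -3.99, -3.64 and -2.89. Igf2 passed the filter only through vehicle, and with no filter the 3 adjusted p were 0.00112, 0.00107 and 0.00248. Between the treated groups Igf2 was not called, at adjusted p of 0.838 for tamoxifen plus alpelisib against tamoxifen, 0.46 for tamoxifen against estradiol and 0.293 for tamoxifen plus alpelisib against estradiol. The stromal, smooth muscle and endothelial marker sums were highest in the same library. With tamoxifen 9 of 10 stromal, 5 of 6 smooth muscle and 4 of 5 tested endothelial markers were lower than in vehicle, against 24.1% of all genes. With estradiol 5 of 10 stromal markers were lower and 2 higher, and 6 of 6 smooth muscle and 2 of 5 tested endothelial markers were lower, against 12.8% of all genes. Of 9 epithelial markers, 4 were lower and 1 higher with tamoxifen, and 5 lower and 0 higher with estradiol. The part of these markers in the Igf2 values was not tested. H19, the maternally expressed noncoding RNA next to Igf2, was also low in the tamoxifen groups but not with estradiol. It had 0.0254 and 0.0273 FPKM with tamoxifen plus alpelisib, 0.0738 and 0 with tamoxifen, 0.846 and 0.570 with estradiol, and 0.732 in vehicle, all under the filter.

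Igf1r, the kinase through which both IGFs signal, had an FPKM of 3.34 and 2.79 with tamoxifen plus alpelisib, 1.34 and 1.17 with tamoxifen, 3.89 and 5.53 with estradiol, and 6.41 in vehicle. No group overlapped another, and the order ran from tamoxifen at the bottom through tamoxifen plus alpelisib and estradiol to vehicle. The share of all genes whose groups do not overlap was not counted, so the lack of overlap is a description, here and for the members below. The mean with tamoxifen was 19.6% of the vehicle value and 26.7% of the estradiol mean, and the log2 fold changes were -1.72 ± 0.22 (adjusted p = 0.00192) and -1.33 ± 0.18 (adjusted p = 0.00196). With alpelisib added the mean was 2.44 times that of tamoxifen alone (log2 0.85 ± 0.18, adjusted p = 0.0333) and still 47.8% of vehicle (log2 -0.87 ± 0.22, adjusted p = 0.0246). Neither of these 2 calls was firm. The call against tamoxifen was lost whichever of the 4 libraries was left out (adjusted p 0.116 to 0.238) and with no filter (0.0841), and the call against vehicle was lost without either library of tamoxifen plus alpelisib (0.0773 and 0.125), with median-of-ratios scaling (0.0621) and with no filter (0.0574). Estradiol against vehicle was not called (log2 -0.39 ± 0.22, adjusted p = 0.206), nor was tamoxifen plus alpelisib against estradiol (log2 -0.48 ± 0.18, adjusted p = 0.0615), a comparison that was called without estradiol 1 (adjusted p = 0.020). The summed stromal markers stood in the same order of groups as Igf1r, whereas the epithelial sum was lowest with estradiol. Dcn and Vim made up most of the stromal sum in vehicle (144.3 and 51.7 FPKM), and single markers differed. Vim and Lum kept the order of the sum, but Col1a1, Col1a2 and Col3a1 were highest with estradiol and Postn with tamoxifen. Of the epithelial markers, Krt7 and Krt19 were highest with tamoxifen. The part of these markers in the Igf1r differences was not tested. Where alpelisib was added to tamoxifen, 3 of 10 stromal markers were higher and 2 lower, 4 of 6 smooth muscle markers were lower, and 1 of 5 tested macrophage and leukocyte markers was higher, in the same libraries in which Igf1r and Irs2 were higher. Over all genes, 6.93% were called higher and 4.81% lower in that comparison.

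Insr, the insulin receptor, was not called in any of the 6 comparisons. It had an FPKM of 2.69 and 3.02 with tamoxifen plus alpelisib, 2.18 and 2.19 with tamoxifen, 2.04 and 2.86 with estradiol, and 2.39 in vehicle. Both alpelisib libraries lay above both tamoxifen libraries, while the estradiol libraries spanned all the others but 1. The log2 fold change was 0.28 ± 0.16 (adjusted p = 0.303; interval -0.10 to 0.66) for tamoxifen plus alpelisib against tamoxifen and -0.09 ± 0.19 (adjusted p = 0.742; interval -0.55 to 0.38) for tamoxifen against vehicle, a value whose sign turned with median-of-ratios scaling (0.045). As Igf1r differed between groups and Insr was not called, their ratio within a library moved: Igf1r stood at 1.24 and 0.924 times Insr with tamoxifen plus alpelisib, 0.615 and 0.536 times with tamoxifen, 1.91 and 1.93 times with estradiol, and 2.69 times in vehicle. Insr was thus above Igf1r in both tamoxifen libraries and below it in both estradiol libraries and in vehicle.

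Igf2r, the clearance receptor for IGF2, was highest with estradiol. It had an FPKM of 3.61 and 3.78 with tamoxifen plus alpelisib, 6.13 and 4.58 with tamoxifen, 8.35 and 12.04 with estradiol, and 3.21 in vehicle. The groups did not overlap, with estradiol highest and vehicle lowest. Estradiol against vehicle gave a 3.18-fold higher mean (log2 1.39 ± 0.25, adjusted p = 0.00859), and tamoxifen plus alpelisib against estradiol a mean of 36.3% (log2 -1.23 ± 0.20, adjusted p = 0.00346). Tamoxifen reached 52.6% of the estradiol mean (log2 -0.81 ± 0.20, adjusted p = 0.0192), a call that was lost with median-of-ratios scaling (log2 -0.49, adjusted p = 0.129), with no filter (adjusted p = 0.0539), without estradiol 2 (adjusted p = 0.0746) and without tamoxifen 2 (adjusted p = 0.0957). Tamoxifen against vehicle, at log2 0.59 ± 0.25 (adjusted p = 0.113), and tamoxifen plus alpelisib against tamoxifen, at -0.43 ± 0.20 (adjusted p = 0.23), were not called.

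**Figure D2:**
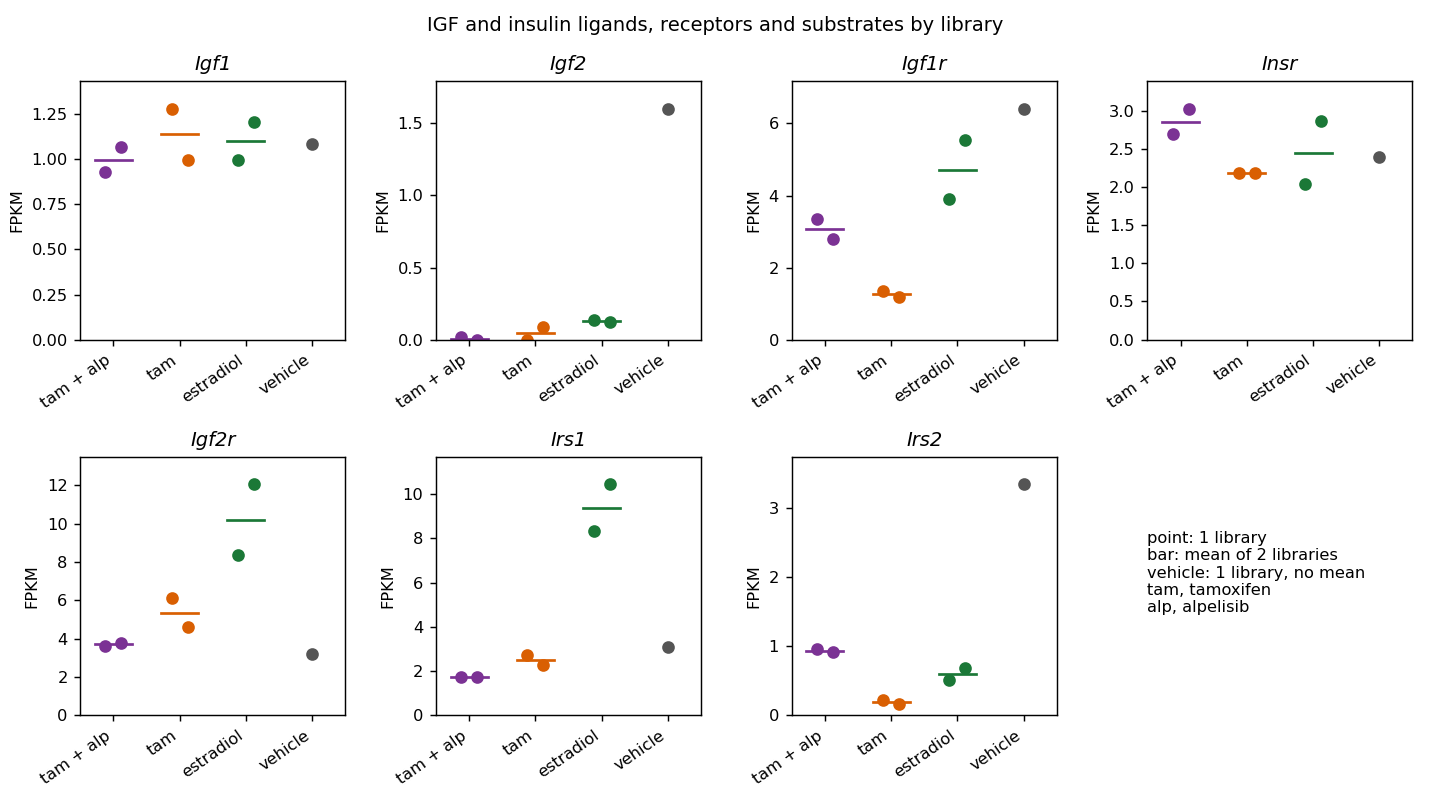
FPKM of the 7 genes, 1 point per library and a bar at the mean of 2 libraries, with a separate axis from 0 in each panel. Igf1r and Irs2 are lowest in the 2 tamoxifen libraries, Irs1 and Igf2r are highest in the 2 estradiol libraries, and Igf2 is above 1 only in the vehicle library.

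The 2 substrates, which couple the same receptors to PI3K, had unlike patterns. Irs1 had an FPKM of 1.75 and 1.75 with tamoxifen plus alpelisib, 2.71 and 2.29 with tamoxifen, 8.31 and 10.4 with estradiol, and 3.11 in vehicle. Both estradiol libraries lay above every other library, and no group overlapped another. The estradiol mean was 3.01 times the vehicle value (log2 1.33 ± 0.19, adjusted p = 0.00391). Tamoxifen was not called against vehicle (log2 -0.23 ± 0.19, adjusted p = 0.36) and stood at 26.7% of the estradiol mean (log2 -1.56 ± 0.15, adjusted p = 0.000655). Tamoxifen plus alpelisib stood at 18.7% of the estradiol mean (log2 -1.91 ± 0.15, adjusted p = 0.0003) and 56.3% of vehicle (log2 -0.58 ± 0.19), just outside the threshold (adjusted p = 0.0544; 0.0207 to 0.194 over the alternatives). Against tamoxifen alone both alpelisib libraries were lower, without passing the test (log2 -0.35 ± 0.15, adjusted p = 0.196).

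Irs2, the substrate whose transcription is known to respond to FOXO factors, had an FPKM of 0.962 and 0.913 with tamoxifen plus alpelisib, 0.227 and 0.160 with tamoxifen, 0.515 and 0.684 with estradiol, and 3.34 in vehicle. No group overlapped another. In fragments, these levels come to roughly 103 and 90 with tamoxifen plus alpelisib, 25 and 16 with tamoxifen, 54 in estradiol 1 and 394 in vehicle, over a transcript of 6323 bases, so that counting error alone is large for the tamoxifen libraries. The mean was 28.1% of vehicle with tamoxifen plus alpelisib, 5.79% with tamoxifen and 17.9% with estradiol, and the log2 fold changes were -1.16 ± 0.16 (adjusted p = 0.00293), -1.86 ± 0.16 (adjusted p = 0.000434) and -1.44 ± 0.16 (adjusted p = 0.00171). With no filter on low values the adjusted p were 0.00472, 0.00159 and 0.00375. All 3 comparisons share the single vehicle library, in which the stromal, smooth muscle and endothelial marker sums were also highest. The part of these markers in the Irs2 values was not tested. Between treated groups, the Irs2 mean with alpelisib added was 4.85 times that of tamoxifen alone (log2 0.70 ± 0.13, adjusted p = 0.0229), a call lost whichever of the 4 libraries was left out (adjusted p 0.0947 to 0.185). With a pseudocount of 0.1 that log2 fold change was 1.83 (adjusted p = 0.0178). Tamoxifen stood at 32.3% of the estradiol mean (log2 -0.42 ± 0.13, adjusted p = 0.0353), a call that held under 3 of 11 alternatives, and tamoxifen plus alpelisib against estradiol was not called (log2 0.28 ± 0.13, adjusted p = 0.112), though it was with median-of-ratios scaling (adjusted p = 0.0375) and without estradiol 2 (adjusted p = 0.0478).

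On the FPKM scale, which is per length, the order of the 7 genes differed between groups. With tamoxifen plus alpelisib Igf2r led (3.70 ± 0.12), followed by Igf1r (3.06 ± 0.384) and Insr (2.86 ± 0.237), which overlapped, then Irs1 (1.75 ± 0.00319), and Igf1 (0.998 ± 0.0948) and Irs2 (0.937 ± 0.0348), which overlapped, with Igf2 last (SD, n = 2). With tamoxifen the order was Igf2r (5.36 ± 1.09), Irs1 (2.50 ± 0.297), Insr (2.18 ± 0.00752), Igf1r (1.26 ± 0.117) and Igf1 (1.14 ± 0.2), which overlapped, Irs2 (0.193 ± 0.0475) and Igf2 (SD, n = 2). With estradiol Igf2r (10.2 ± 2.61) and Irs1 (9.37 ± 1.503) overlapped at the top, ahead of Igf1r (4.71 ± 1.16), Insr (2.45 ± 0.58), Igf1 (1.10 ± 0.151), Irs2 (0.599 ± 0.12) and Igf2 (SD, n = 2). In vehicle Igf1r led, followed by Irs2, Igf2r, Irs1, Insr, Igf2 and Igf1, without a second library to set the spread. Irs2 was thus the second of the 7 in vehicle and the sixth by mean in each treated group.

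Within a library, Irs1 stood at 1.82 and 1.92 times the level of Irs2 with tamoxifen plus alpelisib, 11.9 and 14.3 times with tamoxifen, 16.1 and 15.3 times with estradiol, and 0.930 times in vehicle. The ratio was high with tamoxifen and with estradiol, and Irs2 was below vehicle in both groups, at 5.79% and 17.9% of its level. Irs1 was at 80.4% of vehicle with tamoxifen, a difference that was not called, and at 3.01 times vehicle with estradiol. The summed level of the 2 substrates was 2.71 and 2.66 FPKM with tamoxifen plus alpelisib, 2.94 and 2.45 with tamoxifen, 8.82 and 11.1 with estradiol, and 6.45 in vehicle. The 2 tamoxifen groups overlapped in this sum. These ratios and sums are descriptions, without a test.

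**Figure D3:**
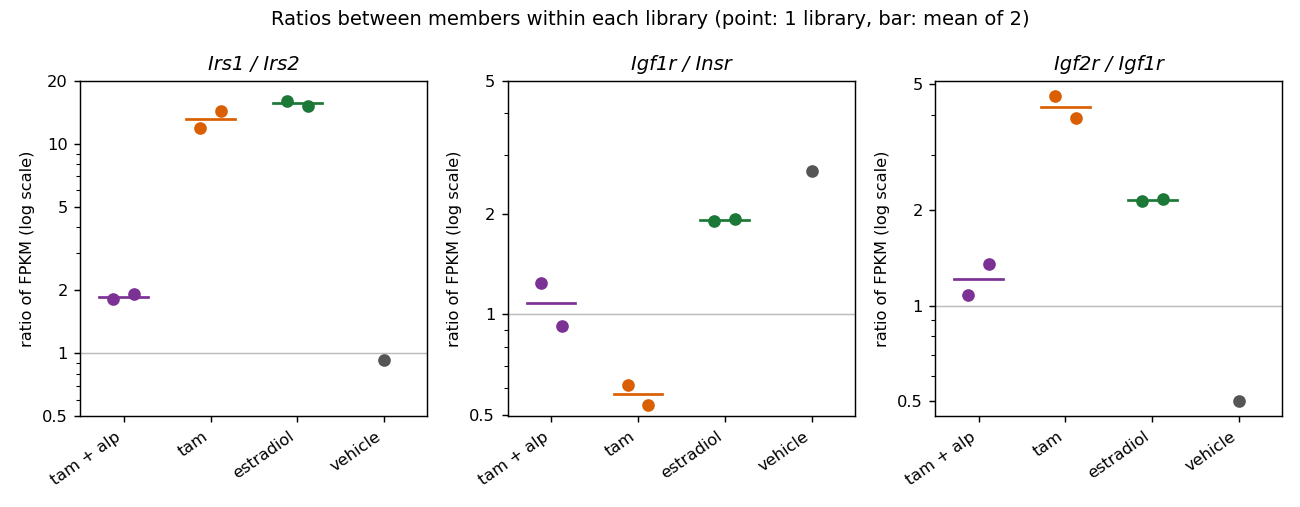
Ratios of FPKM between members within each library, 1 point per library and a bar at the mean of 2 libraries, on a log axis with a line at a ratio of 1. Irs1 is 11.9 to 16.1 times Irs2 in the tamoxifen and estradiol libraries and near Irs2 in vehicle (0.930), and Igf1r is below Insr in both tamoxifen libraries (0.615 and 0.536).

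Counted over the members, 18 of the 42 results were called, and each count is to be read against the share of all genes called in the same comparison. For tamoxifen against vehicle 3 of 7 members were called and all 3 were lower, where 39.0% of all genes were called, 14.9% higher and 24.1% lower. For tamoxifen plus alpelisib against tamoxifen 2 of 7 were called, both higher, where 11.7% of all genes were called, 6.93% higher and 4.81% lower. For estradiol against vehicle 4 of 7 were called, 2 higher and 2 lower, where 35.5% of all genes were called, 22.7% higher and 12.8% lower. Those 4 calls ended when only the 3 libraries of these groups were fitted (adjusted p 0.0551 to 0.090). For tamoxifen against estradiol 4 of 7 were called, all lower, where 48.5% of all genes were called, 12.3% higher and 36.2% lower. For tamoxifen plus alpelisib against vehicle 3 of 7 were called, all lower, where 34.9% of all genes were called, 13.1% higher and 21.8% lower. Against estradiol 2 of 7 were called with tamoxifen plus alpelisib, both lower, where 53.2% of all genes were called, 15.7% higher and 37.5% lower. These directions over all genes depend on scaling: the median over all genes was -0.26 for each tamoxifen group against estradiol, and 0.022 and 0.024 with median-of-ratios scaling. The comparisons share libraries, so these counts are not independent of each other, and Igf2 and Irs2, called lower against vehicle, had passed the filter only through that library.

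**Figure D4:**
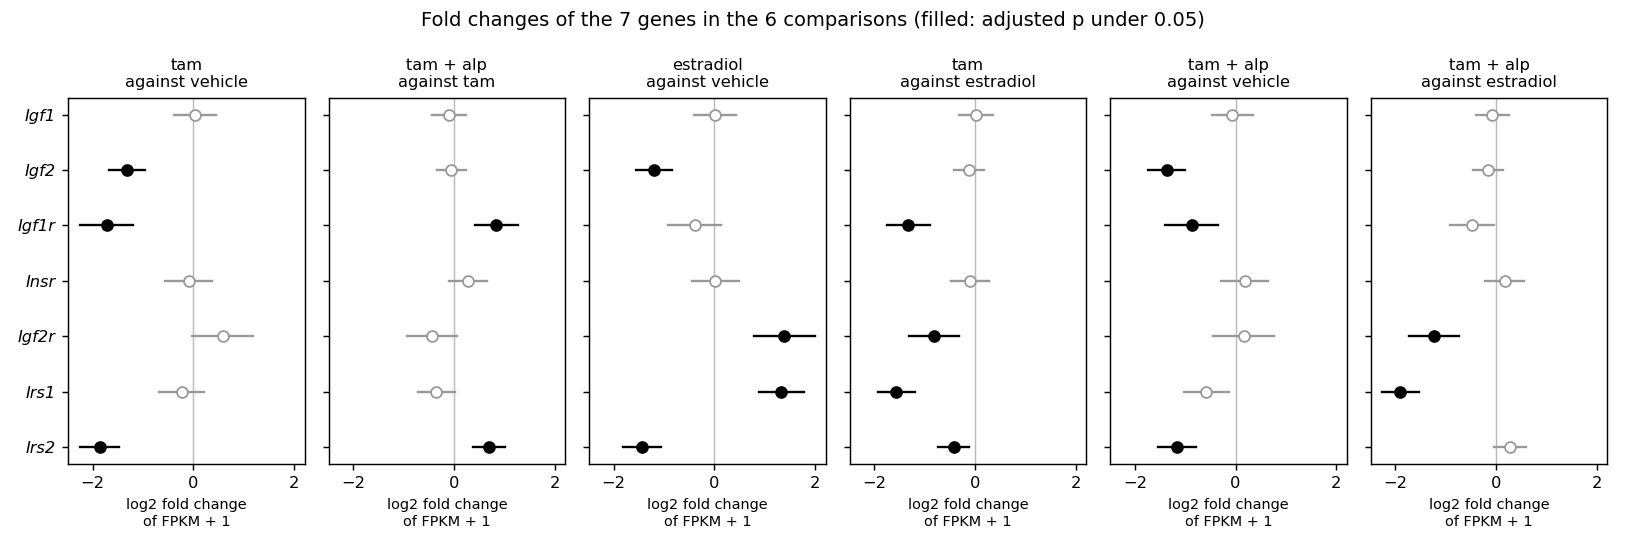
Log2 fold changes of FPKM + 1 of the 7 genes in the 6 comparisons, with 95% intervals from the limma-trend fit and filled points where the adjusted p was under 0.05. Igf1 and Insr have open points in all 6 panels, and Igf1r and Irs2 are the 2 filled points to the right of 0 where alpelisib was added to tamoxifen.

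By Pearson's r of log2(FPKM + 1) over the 7 libraries, among 6466 genes with a mean FPKM of at least 5, the genes with the pattern most like that of Igf1r were Nup153 (0.99), Mtmr3 (0.99) and Tpbg (0.98). Nup153, a nuclear pore protein, had 8.13 and 8.30 FPKM with tamoxifen plus alpelisib, 4.77 and 4.86 with tamoxifen, 9.36 and 11.3 with estradiol, and 14.0 in vehicle. Those most like Irs1 were Zc3h4 (0.998), Slc38a10 (0.997) and Khsrp (0.997), and those most like Igf2r were Gtf3c1, Zfp638 and Larp4b (0.99 each), all highest in the estradiol libraries. For Insr they were Arhgap21 (0.98), Prkra (0.96) and Slc25a36 (0.95), and for Igf1 Ubxn2a (0.87), Zdhhc20 (0.81) and Yipf6 (0.80). With 7 libraries in 4 groups, these are descriptions, and all points share the same few libraries. Among the members themselves r was 0.89 between Irs1 and Igf2r, 0.86 between Irs2 and Igf2, 0.77 between Irs2 and Igf1r, and -0.08 between Irs1 and Irs2.

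Around the members, the insulin genes Ins1 and Ins2 were listed at 0 in all 7 libraries. Of 13 genes that bind IGFs or govern their release from binding proteins, 9 were tested. Against vehicle, 2 were higher and 3 lower with tamoxifen plus alpelisib (median log2 fold change -0.37, against -0.15 over all genes), 1 higher and 4 lower with tamoxifen (-0.62 against -0.12), and 2 higher and 3 lower with estradiol (-0.40 against 0.12). The estradiol counts became 1 higher and 1 lower without either library of tamoxifen plus alpelisib, 0 and 1 with only the compared groups, and 1 and 4 with median-of-ratios scaling. With tamoxifen the counts held without either tamoxifen library, but the median was -0.13 without tamoxifen 1 and -1.12 without tamoxifen 2. Igfbp3, the main carrier of IGFs in serum, had 2.83 and 3.15 FPKM with tamoxifen plus alpelisib, 0.114 and 0.226 with tamoxifen, 0.979 and 1.08 with estradiol, and 31.9 in vehicle. Its order of group means (vehicle, then tamoxifen plus alpelisib, estradiol and tamoxifen) was that of Irs2, an order whose frequency over all genes was not counted. With alpelisib added to tamoxifen 3 of the 9 were higher and 0 lower (median 0.21 against -0.03): Igfbp3 (log2 1.77 ± 0.13, adjusted p = 0.00336), Igfbp2 (2.74 ± 0.34, adjusted p = 0.00791) and Igfbp6, a carrier with preference for IGF2 (1.49 ± 0.31, adjusted p = 0.032). Without either library of tamoxifen plus alpelisib 0 of the 9 were called. Over all genes, 34.9% were called against vehicle with tamoxifen plus alpelisib, 39.0% with tamoxifen and 35.5% with estradiol. For tamoxifen plus alpelisib against tamoxifen the share of all genes was 11.7%. The stanniocalcins, which inhibit the protease that frees IGF from Igfbp4, went opposite ways with tamoxifen against vehicle, with Stc2 at 2.96 ± 0.24 (adjusted p = 0.000363) and Stc1 at -2.52 ± 0.15 (adjusted p = 0.000121). That protease, Pappa, stood at no more than 0.0524 FPKM in the treated libraries and at 0.243 in vehicle, under the filter.

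Of 20 adaptors and inhibitors of these receptors, 15 were tested. Against vehicle, 5 were lower and 1 higher with tamoxifen plus alpelisib (median log2 fold change -0.23 against -0.15 over all genes), 7 lower and 1 higher with tamoxifen (-0.57 against -0.12), and 0 lower and 2 higher with estradiol (-0.08 against 0.12). With median-of-ratios scaling, 14 were tested and the counts against vehicle were 3 lower and 2 higher, 4 lower and 1 higher, and 3 lower and 1 higher in the same order. Without either library of tamoxifen plus alpelisib that group had 2 lower and 0 higher, and with only the compared groups tamoxifen had 3 lower and 0 higher and estradiol 0 called. Enpp1, a membrane protein that inhibits the insulin receptor, fell with tamoxifen against vehicle (-2.11 ± 0.18, adjusted p = 0.000417). Grb10, an adaptor that dampens signaling by both receptors, had 3.28 and 3.60 FPKM with tamoxifen plus alpelisib, 3.74 and 3.40 with tamoxifen, 13.8 and 15.4 with estradiol, and 9.11 in vehicle. The 2 tamoxifen groups overlapped, and tamoxifen was lower than estradiol (-1.77 ± 0.13, adjusted p = 0.000283) and vehicle (-1.15 ± 0.16, adjusted p = 0.00269). Against tamoxifen, tamoxifen plus alpelisib had 3 of the 15 higher and 0 lower (median 0.16 against -0.03): Socs3, an inhibitor of receptor and cytokine signaling (2.03 ± 0.32, adjusted p = 0.015), the docking protein gene Gab1 (0.65 ± 0.14, adjusted p = 0.0372) and Ptpn1, the phosphatase that acts on the insulin receptor (0.54 ± 0.12, adjusted p = 0.0404). Without either library of tamoxifen plus alpelisib 0 of the 15 were called, and without either library of tamoxifen 1 was. The shares of all genes called against vehicle were 34.9% with tamoxifen plus alpelisib, 39.0% with tamoxifen and 35.5% with estradiol. For tamoxifen plus alpelisib against tamoxifen that share was 11.7%.

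Of 16 genes from PI3K to AKT, 14 were tested. With alpelisib added to tamoxifen 0 were higher and 1 lower (median log2 fold change 0.18 against -0.03 over all genes), the regulatory subunit gene Pik3r3 (-1.03 ± 0.16, adjusted p = 0.0142), a call lost without either library of tamoxifen plus alpelisib and without tamoxifen 1 (highest adjusted p = 0.139). It had 3.47 and 3.66 FPKM with tamoxifen plus alpelisib, 8.92 and 7.82 with tamoxifen, 10.5 and 13.6 with estradiol, and 1.998 in vehicle. With tamoxifen against vehicle 1 was higher, Pik3r3 (1.64 ± 0.20, adjusted p = 0.00157), and 2 were lower, Akt2 (-0.65 ± 0.16, adjusted p = 0.0198) and Akt1 (-0.68 ± 0.19, adjusted p = 0.0321). The calls of Akt1 and Akt2 were each lost under 5 of 12 alternatives, and 0 genes of the list were lower without either library of tamoxifen plus alpelisib or with only the compared groups. With estradiol against vehicle 4 were higher and 0 lower (median 0.30 against 0.12), but 2 higher and 2 lower with median-of-ratios scaling. The 4 higher became 2 without estradiol 2, 1 with the replicate block and without either library of tamoxifen plus alpelisib, and 0 with only the compared groups. Over all genes, 11.7% were called for tamoxifen plus alpelisib against tamoxifen, 39.0% for tamoxifen and 35.5% for estradiol against vehicle. In the main fit the calls of this list, taken in either direction, did not exceed those shares. By direction, 4 of 14 higher with estradiol against vehicle lay above the 22.7% of all genes. The 1 of 14 lower with alpelisib added to tamoxifen lay above 4.81%. With tamoxifen against vehicle, 1 of 14 higher and 2 of 14 lower lay below 14.9% and 24.1%. Pik3ca, whose product alpelisib inhibits, had 3.04 and 2.97 FPKM with tamoxifen plus alpelisib, 2.74 and 2.31 with tamoxifen, 3.30 and 4.34 with estradiol, and 2.84 in vehicle.

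Among the 3 IGF2 mRNA-binding proteins Igf2bp2 alone was tested. Its order of group means (vehicle, tamoxifen plus alpelisib, estradiol, tamoxifen) was again that of Irs2. How many other genes share this order was not counted. The step between tamoxifen plus alpelisib and estradiol was called neither for Irs2 nor for Igf2bp2. Igf2bp2 had 16.8 and 16.9 FPKM with tamoxifen plus alpelisib, 10.4 and 9.50 with tamoxifen, 13.6 and 13.6 with estradiol, and 26.6 in vehicle. It was called in 5 of the 6 comparisons, including tamoxifen against vehicle (-1.34 ± 0.15, adjusted p = 0.00118) and tamoxifen plus alpelisib against tamoxifen (0.71 ± 0.12, adjusted p = 0.0194, lost whichever of the 4 libraries was left out). The call for tamoxifen against estradiol (-0.41 ± 0.12, adjusted p = 0.031) held under 4 of 12 alternatives and was -0.080 with median-of-ratios scaling, and that for tamoxifen plus alpelisib against vehicle (-0.63 ± 0.15, adjusted p = 0.0203) held under 8 of 12. Of 9 imprinted growth genes 4 were tested, and with tamoxifen against vehicle 3 were lower and 0 higher (median log2 fold change -0.93 against -0.12 over all genes), where 24.1% of all genes were called lower and 14.9% higher. Of these 3, the call of Meg3, a maternally expressed noncoding RNA, held under only 2 of 11 alternatives, and 1 gene of the list was lower with only the compared groups. Plagl1, an imprinted zinc finger factor, was lower than in vehicle with tamoxifen plus alpelisib (-2.03 ± 0.22, adjusted p = 0.00119), with tamoxifen (-2.61 ± 0.22, adjusted p = 0.000401) and with estradiol (-1.78 ± 0.22, adjusted p = 0.00243), the last call being lost with only the compared groups (adjusted p = 0.0535).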

How the data were processed

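Total RNA was sequenced in 7 libraries of 4 groups. The authors deposited FPKM values, recognised as such because they are not whole numbers, differ in sum between libraries and come from Cufflinks. Per the submitters' processing notes CASAVA, Bowtie and Cufflinks were used, without versions, and the build named is hg19 although the symbols are those of the mouse, so no position is taken from the deposited table. How reads were assigned and whether strand was used are not given in the sources used here.

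A limma-trend fit of 4 group means on log2(FPKM + 1), with no further scaling, covered the 12314 genes that reached an FPKM of 1 in any library, and left 3 residual degrees of freedom. Vehicle, with 1 library, was assumed to vary like the other groups. The Benjamini-Hochberg adjustment was made separately for each comparison, and the threshold was 0.05. The fit was tested on simulated data, with changes placed only in genes above the mean level of Igf1, Igf2, Insr and Irs2. That test therefore does not show how the fit performs at those low levels. Depth was read from 3092 genes with 1 transcript of over 1000 bases in GENCODE. It covers counting error only and limits the precision of levels under about 1 FPKM. Motifs were searched in 250 bases before each RefSeq start. Named in the text are all 7 members and up to 3 called genes of lowest p per list. The 3 genes most like each member with a mean FPKM of at least 1 are named as well. A few list genes (H19, Pappa, Pik3ca) and the single cell type markers named were chosen after their values were seen. The members and lists were chosen with earlier results of these data known. Alternatives were median-of-ratios scaling, a pseudocount of 0.1, no filter, a filter asking for 1 FPKM in 2 or more libraries, a replicate block, only the compared groups, and each replicate left out; leaving out libraries of groups not compared was added after the data were seen. Versions were limma 3.58.1, R 4.3.3, Python 3.11.15, pandas 2.3.3, numpy 2.4.6 and matplotlib 3.10.9.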

Additional observations from a re-analysis of the deposited data

How the results depend on the processing

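The number of members called changed with several choices. With the filter asking for 1 FPKM in 2 or more libraries, which leaves Igf2 and Irs2 untested, it was 1 for tamoxifen and 1 for tamoxifen plus alpelisib against vehicle, 2 for estradiol against vehicle and 1 for tamoxifen plus alpelisib against tamoxifen. That last count was also 1 with no filter, 0 with the replicate block, and 0 to 2 with 1 replicate left out. It was 0 for estradiol against vehicle with only the compared groups, a fit with 1 residual degree of freedom, and for tamoxifen against estradiol 2 with median-of-ratios scaling and 2 to 4 with 1 replicate left out (2 without estradiol 2 or tamoxifen 2). Over all genes, tamoxifen plus alpelisib against tamoxifen had 870 calls with no filter, 589 with the replicate block and 10 to 1765 with 1 replicate left out (20 and 10 without tamoxifen plus alpelisib 1 and 2, 297 and 676 without tamoxifen 1 and 2), against 1445. Estradiol against vehicle had 197 calls with only the compared groups and 2803 to 5035 with 1 replicate left out (2803 and 2804 without tamoxifen plus alpelisib 1 and 2), against 4366. Tamoxifen plus alpelisib had 6843 with only the compared groups and 1898 to 5070 with 1 replicate left out against vehicle (4299 with all), and 3875 to 6607 with 1 replicate left out against estradiol (6548 with all), each lowest without a library of its own group (1898 and 1941, and 3875 and 3915). Median-of-ratios scaling changed the split of calls: 2508 higher and 2493 lower for tamoxifen against vehicle (1838 and 2969 without it), 2085 and 2235 for estradiol against vehicle (2793 and 1573), 2960 and 2633 for tamoxifen against estradiol (1519 and 4458), and for tamoxifen plus alpelisib 2230 and 2096 against vehicle (1619 and 2680) and 3371 and 2977 against estradiol (1935 and 4613). The cause was not tested.

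Signs turned only for results that were not called. They could turn only with median-of-ratios scaling, the pseudocount of 0.1 or a library of a compared group left out. The other alternatives leave both group means as they were and change p-values alone. The count of results that kept their direction, given below, therefore does not measure how firm a direction is. With median-of-ratios scaling the log2 fold change of Insr was 0.045 for tamoxifen against vehicle, -0.097 for estradiol against vehicle and 0.14 for tamoxifen against estradiol, and that of Igf1 was -0.071 for estradiol against vehicle and, for tamoxifen plus alpelisib, 0.040 against vehicle and 0.11 against estradiol. With 1 replicate left out Igf1 ranged from -0.061 to 0.13 for tamoxifen against vehicle, -0.063 to 0.084 for estradiol against vehicle, -0.072 to 0.12 for tamoxifen against estradiol and -0.15 to 0.0015 for tamoxifen plus alpelisib against estradiol. Insr ranged from -0.16 to 0.19 for estradiol against vehicle, -0.28 to 0.067 for tamoxifen against estradiol and -0.0025 to 0.34 for tamoxifen plus alpelisib against estradiol, and Igf2 from -0.11 to 0.011 for tamoxifen plus alpelisib against tamoxifen. Of the 492 member results under an alternative, 438 kept their direction and side of the threshold, 32 lost a call, 7 gained one and 15 changed sign.

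The titles do not say whether equal mouse numbers pair libraries between groups. Over genes, deviations of same-numbered libraries correlated at 0.27 between tamoxifen plus alpelisib and tamoxifen, -0.18 between tamoxifen plus alpelisib and estradiol, and -0.40 between tamoxifen and estradiol. With 2 libraries per group, these values cannot show whether a pairing or a shared batch is present. With the replicate block, the calls lost were those of Igf1r (adjusted p = 0.0784) and Irs2 (0.0632) for tamoxifen plus alpelisib against tamoxifen, of Igf1r for tamoxifen plus alpelisib against vehicle (0.0517) and of Irs2 for tamoxifen against estradiol (0.0684). Levels of Igf2, and of Irs2 with tamoxifen, rest on few fragments.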
